A study of Mus musculus with 405 samples.

Results

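Protoporphyrinogen oxidase inhibitors are herbicides that block the enzyme of the same name, which in mammals sits in mitochondria and carries out the step of heme synthesis before iron is inserted. The 10 such compounds studied here, 10 libraries of the 393 in the screen table and of 405 samples in the series, were picked by chemical name, and the rule used no measured value, although this class was taken up with earlier results of these data known. Of these, 3 were diphenyl ethers, namely acifluorfen, lactofen and oxyfluorfen. The other 7 belonged to further chemical families: butafenacil is a uracil, carfentrazone-ethyl and sulfentrazone are triazolinones, flumioxazin and flumiclorac-pentyl are N-phenylimides, fluthiacet-methyl is a thiadiazole and pyraflufen-ethyl is a phenylpyrazole. Each compound was represented by 1 library and all had the same exposure, 10 µM for 24 h begun on day 7 in vitro, so that compounds could be compared at matched dose and time. The reference was 49 vehicle libraries, and 287 other chemicals (334 libraries) of the screen served as a second reference.

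Every culture was a primary preparation of cortex from embryos of C57BL/6J mothers mated with CAST/EiJ males, at embryonic day 15 by the labels and slightly earlier by the study's methods, had received an antimitotic agent before exposure, and was sequenced as polyadenylated RNA. The study's methods chose for each chemical a concentration without overt cell death, so the libraries describe cultures below that limit. Nothing in the labels says which libraries shared a dissection or a batch. For single compounds and pairs, p-values rest on the spread among the vehicle libraries. For groups of compounds they also rest on the spread between compounds. Against the other chemicals, the spread is among chemicals and no vehicle library enters. Such a culture also holds glia, and in bulk RNA a smaller number of cells of 1 type and less RNA per cell cannot be told apart.

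Heme synthesis begins in the mitochondrion with 5-aminolevulinate synthase, whose housekeeping form is encoded by Alas1 and sets the rate of the pathway. Heme itself represses Alas1, so the gene is known in liver as a sensor of heme supply. Later enzymes include those encoded by Alad, Uros, Urod and Cpox, by Ppox, which is the herbicides' target, and by Fech, which inserts iron. Neurons make heme for cytochromes of the respiratory chain. Inhibition of the target enzyme is known to let its substrate escape and oxidize to protoporphyrin, which in plants destroys membranes in light.

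All values below are log2 deviations of a gene from its own median over the screen, not levels, so a value of 0 is an ordinary library and genes cannot be ranked by abundance. A difference is the compound's value minus the vehicle mean on that log2 scale, with its standard error (SE), and a gene was called when its limma p, adjusted by Benjamini-Hochberg over 13304 genes, was below 0.05. The labelled cell type could not be checked against marker levels for the same reason. Library spread over genes was 0.344 to 0.455 (SD, log2) in the 10 compound libraries and 0.266 to 0.522 in vehicle, and no 2 libraries were near copies (highest Pearson correlation 0.731). One vehicle library, replicate 39, stood apart: against the other 48 it had 1246 genes called, whereas the remaining 48 vehicle libraries had 0 to 22. It was kept, and results that moved without it are given with both values.

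The gene with the smallest p of all in the comparison of the 10 compounds with vehicle was Alas1. Its value was 1.14 with lactofen, 1.06 with sulfentrazone, 0.91 with oxyfluorfen, 0.88 with butafenacil, 0.73 with flumioxazin, 0.71 with pyraflufen-ethyl, 0.35 with fluthiacet-methyl, 0.14 with flumiclorac-pentyl, 0.09 with carfentrazone-ethyl and 0.07 with acifluorfen. The 49 vehicle libraries ran from -0.96 through a median of -0.08 to 0.47. All 10 compounds therefore lay above the vehicle median, 6 lay above the highest vehicle library and 4 lay within the vehicle range. The highest vehicle value belonged to replicate 39.

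Alas1 was 0.76 higher on the log2 scale over the 10 compounds than in vehicle (SE 0.13, a 1.70-fold difference with a 95% interval of 1.41 to 2.04, limma adjusted p = 0.0047). A two-sided permutation test of the same difference with 100000 resamples gave p = 1e-05, the smallest value those resamples can give. In this comparison 2 genes of 13304 were called, or 0.015%, the other being Pbx3. The call for Alas1 held when any single compound was left out, with differences between 0.71 and 0.82, and without vehicle replicate 39, with 0.78. Against the other 287 chemicals the difference was 0.70 (SE 0.11, limma adjusted p = 1.73e-05), and Alas1 was again the gene with the smallest p.

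Ranked by Alas1 over all 297 chemicals, lactofen, sulfentrazone, oxyfluorfen, butafenacil and flumioxazin took ranks 1 to 5, and pyraflufen-ethyl had rank 7 behind the triazine herbicide cyanazine, at 0.72. Fluthiacet-methyl came at rank 34, flumiclorac-pentyl at 77, carfentrazone-ethyl at 99 and acifluorfen at 107. Of the other 287 chemicals 14, or 4.88%, had a value above the highest vehicle library, and their median was -0.07. Steps between neighbours among the 10 compounds were at most 0.36, less than the vehicle SD of 0.39, so no compound differed from the next in the order by more than the spread of the reference.

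**Figure D1:**
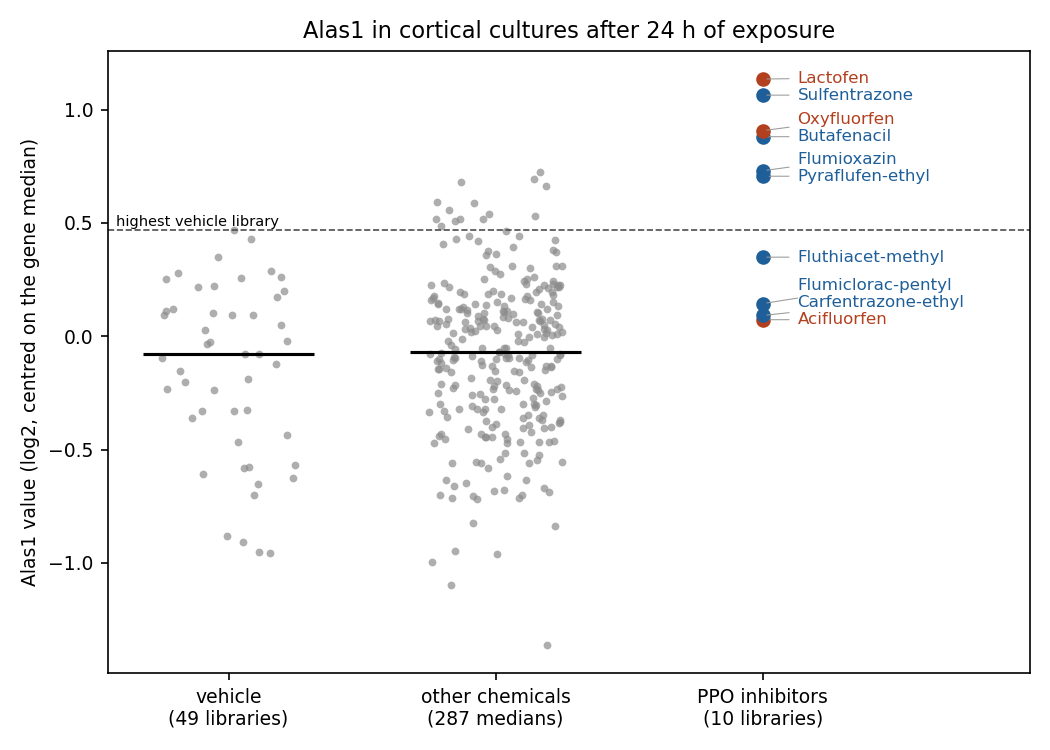
Alas1 value (log2, centred on the gene's median over the screen) in 49 vehicle libraries, in the medians of 287 other chemicals and in the 10 herbicide libraries, with diphenyl ethers in red and the other 7 compounds in blue. Black lines are medians and the dashed line is the highest vehicle library at 0.47, above which 6 of the 10 compounds lie.

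No single compound reached the threshold for Alas1 on its own, in a fit that assumed each lone library to vary like vehicle. The differences ran from 0.23 (acifluorfen, 95% interval -0.54 to 1.00) to 1.29 (lactofen, 0.52 to 2.06, limma adjusted p = 0.282). The diphenyl ethers as a group were 0.86 above vehicle (SE 0.23, limma adjusted p = 0.116) and the other 7 were 0.72 above it (SE 0.16, limma adjusted p = 0.282). Acifluorfen was the diphenyl ether with the lowest Alas1 value, so leaving it out raised the group's difference by construction. The difference then became 1.18, with 2 libraries, and passed the threshold (limma adjusted p = 0.0270). The 2 groups differed from each other by 0.14 (95% interval -0.40 to 0.67), which turned to -0.08 when lactofen was left out.

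Past Alas1, no step of the pathway was called over the 10 compounds. Of the 15 listed genes for heme synthesis and its mitochondrial transport, 14 were in the table and 1, Alas1, was called over the 10 compounds. Of the 14 differences 11 were above 0, with a median of 0.13, where the median over all 13304 genes was -0.01. Ppox, the target itself, was 0.26 higher (SE 0.16, limma adjusted p = 0.665), with values from -0.80 in sulfentrazone to 0.71 in carfentrazone-ethyl, all within the vehicle range of -1.23 to 0.98. Fech was 0.13 higher (SE 0.06), with an unadjusted permutation p of 0.0426 that did not hold over all genes (limma adjusted p = 0.538). Cpox, the enzyme before Ppox, differed by 0.04 (SE 0.09).

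Single compounds stood outside the vehicle range for a few of these genes. Urod, the decarboxylase that acts before Cpox, was at -3.06 with lactofen, below the lowest vehicle library at -2.49 (difference -3.02, SE 0.70, limma adjusted p = 0.0862). Slc25a37, the mitochondrial iron importer mitoferrin, was at -1.17 with fluthiacet-methyl against a lowest vehicle value of -0.55. Slc25a39, a mitochondrial carrier that supplies glutathione, rose with oxyfluorfen, at 0.72 against a highest vehicle value of 0.44 (difference 0.77, SE 0.22, limma adjusted p = 0.0452), as did 0.383% of all genes. No other gene of this list was called with any single compound.

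**Figure D2:**
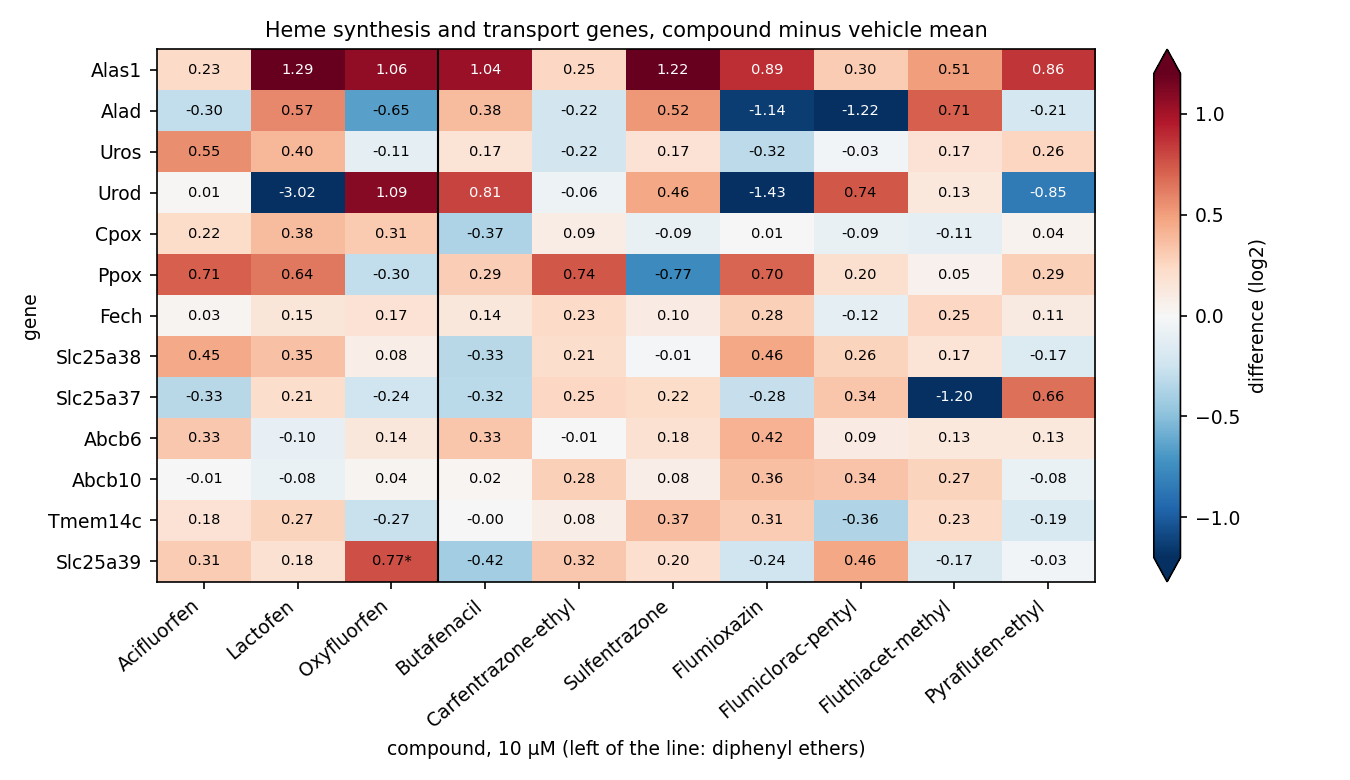
Difference from the vehicle mean (log2) of 13 genes of heme synthesis and mitochondrial transport, in rows, for each of the 10 compounds at 10 µM, in columns, with diphenyl ethers left of the line. The asterisk marks Slc25a39 with oxyfluorfen (0.77), the only cell with an adjusted p below 0.05, and the Alas1 row is above 0 throughout.

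Genes of heme breakdown and iron handling were measured for 17 of 18 listed, and none was called over the 10 compounds. Their median difference was -0.01. Hmox1, the heme oxygenase that opens the heme ring, was 0.25 higher (SE 0.11, limma adjusted p = 0.517) and Blvrb, a biliverdin reductase, had a difference of -0.68 (SE 0.28, limma adjusted p = 0.471). With oxyfluorfen, Fth1, the heavy chain of the iron store ferritin, rose to 0.33, above a vehicle range of -0.31 to 0.15 (difference 0.34, SE 0.10, limma adjusted p = 0.0423). Flumioxazin, at 0.16, was also above that range for Fth1 without being called. Hmox1 was at 0.81 in the oxyfluorfen library against a highest vehicle value of 0.61, without passing the threshold (limma adjusted p = 0.134). With flumioxazin, Blvra, the other biliverdin reductase, fell to -3.99 from a vehicle range of -2.10 to 3.11 (difference -4.12, SE 0.85, limma adjusted p = 0.0352).

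The second gene called over the 10 compounds, Pbx3, encodes a homeodomain partner of Hox proteins and was lower. Its values ran from -0.64 with flumiclorac-pentyl through a median of -0.16 to 0.03 with sulfentrazone, against -0.32 to 0.72 in vehicle with a median of 0.20. All 10 lay below the vehicle median, and 2 lay below the lowest vehicle library. The difference was -0.40 (SE 0.07, limma adjusted p = 0.0103). It did not pass without flumiclorac-pentyl (-0.35, limma adjusted p = 0.0680), nor with flufenpyr-ethyl, a further herbicide of this kind, added (-0.34, limma adjusted p = 0.185), nor against the other chemicals (-0.31, limma adjusted p = 0.753).

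Against the other 287 chemicals 3 genes were called, or 0.0225%, of which Alas1 was the only one higher. Mettl25, which encodes a methyltransferase-like protein, had a difference of -0.91 (SE 0.19, limma adjusted p = 0.00950), with values from -2.78 with flumioxazin to 0.10 with sulfentrazone. The unnamed transcript 1700086O06Rik had a difference of -1.15 (SE 0.24, limma adjusted p = 0.00950), with values from -2.75 with lactofen to 0.39 with flumioxazin. Both overlapped the vehicle range, and against vehicle neither passed (limma adjusted p = 0.130 and 0.153). Without flumiclorac-pentyl, neither passed against the other chemicals (limma adjusted p = 0.0775 for Mettl25 and 0.0645 for 1700086O06Rik), and 1 gene, Alas1, was called.

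Cholesterol synthesis and uptake genes, which supply membrane sterol, lay slightly above vehicle in the mean over the 10 compounds, without any call. All 21 measured members had a difference above 0 over the 10 compounds, from 0.04 to 0.34, with a median of 0.10 against -0.01 over all genes, and 0 of 21 were called. Tm7sf2, a sterol reductase, had 0.34 (SE 0.11, limma adjusted p = 0.343). Against the other chemicals the median of this list was 0.03. By compound, the list's median value ran from -0.17 with flumioxazin to 0.25 with butafenacil. All compounds lay within the vehicle range of -0.44 to 0.55, so the direction was not even across compounds. Genes of the ATF4 integrated stress response, which restores amino acid supply, had a median of 0.17 against vehicle, 0.02 against the other chemicals and no member called among 26.

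The diphenyl ethers were compared with vehicle in a fit that also held the other 7 compounds. In it 6 genes, or 0.0451%, were called and all 6 were lower. The 5 with the largest differences were Rpl37 (a ribosomal protein), Adora2a (an adenosine receptor), Fam13b, Tagap1 (a GTPase-activating protein) and Ppm1e (a protein phosphatase). Adora2a was at -1.74 with oxyfluorfen, -1.13 with acifluorfen and -0.57 with lactofen, against -1.44 to 1.11 in vehicle, a difference of -1.41 (SE 0.25, limma adjusted p = 0.00297). Fam13b was at -0.94 with both lactofen and oxyfluorfen and at -0.33 with acifluorfen, against -0.56 to 0.80 in vehicle (difference -0.96, SE 0.17, limma adjusted p = 0.00297). Rpl37 was at -4.72 with oxyfluorfen and -3.50 with lactofen, but at -0.41 with acifluorfen (difference -2.84, SE 0.60, limma adjusted p = 0.0365). Ribosomal protein genes such as Rpl37, and Tagap1, have near-identical copies in the genome that could share reads, so these 2 values are uncertain.

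These calls leaned on single libraries. Without oxyfluorfen 1 gene was called, without lactofen 15 and without acifluorfen 80, and without vehicle replicate 39 the count was 33. The other 7 compounds against vehicle gave 0 calls in limma, with 845 genes (6.35%) at an unadjusted p below 0.05, and the direct contrast of diphenyl ethers with the other 7 also gave 0, with 1023 genes (7.69%) below that value. The 6 calls are therefore not shown to be particular to diphenyl ethers: the contrast for Adora2a was -1.13 (95% interval -1.71 to -0.56, limma adjusted p = 0.281) and that for Fam13b was -0.77 (-1.16 to -0.39, limma adjusted p = 0.281).

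All 45 pairs of compounds were compared gene by gene, with p-values adjusted over genes and pairs together, and 97 differences were called. For Alas1 none of the 45 pairs reached even an unadjusted p of 0.05, and the smallest p adjusted over the pairs was 0.603. The 95% interval of each Alas1 difference reached 1.08 to either side, so that a pair without a call may still differ by about that much. Most pairs had few calls: 4 genes (0.0301%) for butafenacil with flumiclorac-pentyl and with flumioxazin, 5 (0.0376%) for oxyfluorfen with carfentrazone-ethyl and with flumioxazin, and at most 21 (0.158%), for butafenacil with oxyfluorfen.

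Lactofen is an ester of acifluorfen, and the pair thus differs by the masking of a free carboxylic acid. In this and the following pairs, structure and the culture behind each single library cannot be told apart. Alas1 was at 1.14 with the ester and at 0.07 with the acid, the largest difference of any pair (acifluorfen minus lactofen -1.06, 95% interval -2.14 to 0.01, unadjusted limma p = 0.0531, limma adjusted p = 0.834). Of all genes 1 was called, or 0.00752%: Foxo4, a forkhead transcription factor, at -3.44 with acifluorfen and 0.73 with lactofen (difference -4.18, SE 0.64, limma adjusted p = 0.00397). Vehicle values of Foxo4 ran from -1.27 to 1.18, so that acifluorfen lay outside them and lactofen within.

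Oxyfluorfen carries an ethoxy group where acifluorfen has its carboxyl. Between them 2 genes were called, or 0.015%. Of these, Acot13, a thioesterase, was at -2.91 with acifluorfen and -0.05 with oxyfluorfen (difference -2.87, SE 0.53, limma adjusted p = 0.0267). Lactofen and oxyfluorfen differed in 6 genes, or 0.0451%. Among these, the potassium channel Kcnb2, the cell-surface hyaluronidase gene Tmem2, the zinc finger gene Hivep3 and Fam102b were higher with lactofen, by 0.91 to 1.74, and Zbtb7b, a transcriptional repressor, was lower, by a difference of -2.45 (SE 0.49, limma adjusted p = 0.0475). In Kcnb2, Tmem2, Hivep3 and Fam102b the oxyfluorfen value lay below every vehicle library. In Zbtb7b the lactofen value did.

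In the other 2 pairs no gene was called. The triazolinones carfentrazone-ethyl and sulfentrazone differed by -0.97 in Alas1 (95% interval -2.05 to 0.10). The N-phenylimides flumiclorac-pentyl and flumioxazin differed by -0.59 in Alas1 (95% interval -1.66 to 0.49). The nearest to the threshold in the N-phenylimides was Blvra, at 1.81 with flumiclorac-pentyl and -3.99 with flumioxazin (difference 5.80, 95% interval 3.40 to 8.20, limma adjusted p = 0.0579).

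Counted gene by gene against vehicle, 1 compound, oxyfluorfen, stood apart from the other 9. Its count was lower under the other settings run, most of all with variably expressed genes only, except without vehicle replicate 39. Oxyfluorfen had 391 genes called, 2.94% of those tested, of which 51 were higher (0.383%) and 340 lower (2.56%). Without vehicle replicate 39 the count was 493, with 77 higher and 416 lower. Lactofen had 1 (0.00752%), fluthiacet-methyl 2 (0.015%), acifluorfen 3 (0.0225%), and carfentrazone-ethyl and pyraflufen-ethyl 6 each (0.0451%). Flumioxazin had 7 (0.0526%), flumiclorac-pentyl 8 (0.0601%), sulfentrazone 9 (0.0676%) and butafenacil 10 (0.0752%). The median of these 9 counts was 6. When each vehicle library other than replicate 39 was set against the rest, the counts were 0 to 22, with 2 as their median. Of the 334 libraries of other chemicals 26, or 7.78%, had at least as many calls as oxyfluorfen. Most of those 26 were replicates of the control topotecan, so this is a share of libraries and not of chemicals. Of the 52 calls in the 9 compounds 51 were falls, as were 168 of 175 in the 48 vehicle libraries. The counts of the 9 compounds thus lay within the range of vehicle cultures.

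**Figure D3:**
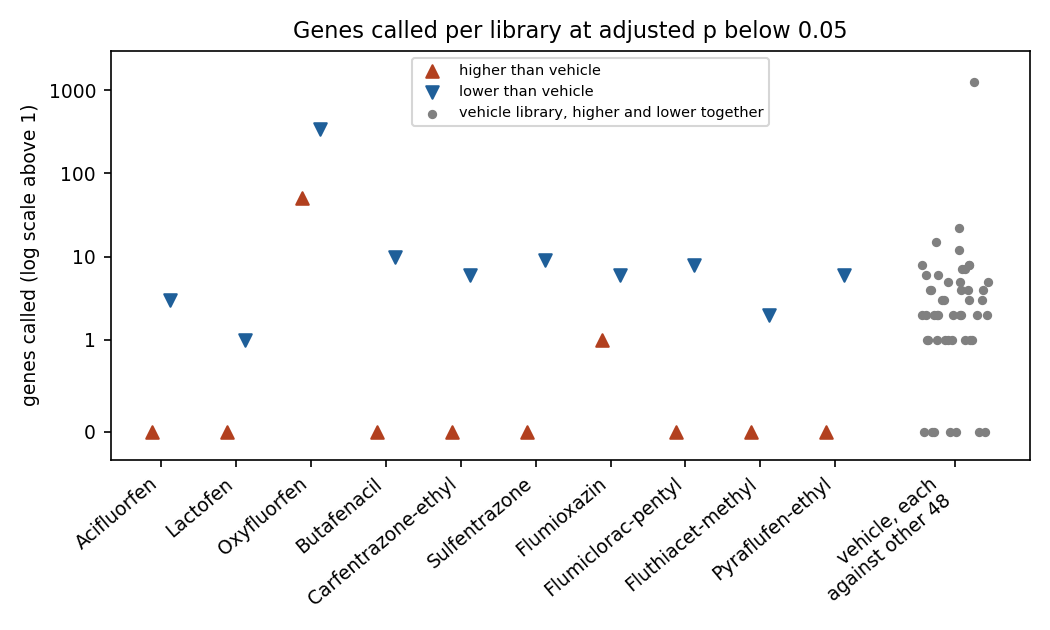
Genes called at an adjusted p below 0.05, on an axis that is logarithmic above 1, higher (triangles up) and lower (triangles down) for each compound library against 49 vehicle libraries. Grey points are the 49 vehicle libraries, each against the other 48, where all but 1 library lie between 0 and 22.

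Among the calls in the 9 compounds the largest fall was in Crh, a gene whose vehicle values also spread widely. Crh, the stress neuropeptide corticotropin-releasing hormone, fell with butafenacil to -5.06 (difference -5.00, SE 0.84, limma adjusted p = 0.00081) and with flumiclorac-pentyl to -4.33 (difference -4.27, SE 0.84, limma adjusted p = 0.0238). Vehicle values of Crh ran from -2.18 to 1.78, and the other 8 compounds lay between -0.53 and 1.35. Dguok, the mitochondrial deoxyguanosine kinase, and Acot13 fell with acifluorfen, by differences of -3.66 and -2.90. Mt3, the brain metallothionein, fell with carfentrazone-ethyl by a difference of -1.86 (SE 0.34, limma adjusted p = 0.00760). Sult1a1, a phenol sulfotransferase, fell with butafenacil, to -3.67 against a lowest vehicle value of -1.85. The 1 rise among these 52 calls was Antxr2, an anthrax toxin receptor, with flumioxazin (difference 1.44, SE 0.31, limma adjusted p = 0.0491). It did not pass without vehicle replicate 39 (limma adjusted p = 0.0510), when the 9 compounds had 57 calls, all of them falls, nor with the spread pooled over the screen (0.0678).

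Oxyfluorfen's 340 falls and 51 rises were described with the gene lists. The 5 largest falls were in Rpl37, Drd2 (the dopamine D2 receptor), 1700003D09Rik, Sfxn4 (a mitochondrial sideroflexin) and A330076H08Rik. Drd2 was at -3.72, with vehicle between -1.90 and 1.63 (difference -4.00, SE 0.68, limma adjusted p = 0.000522). The 5 largest rises were in Ntpcr (a nucleoside triphosphatase), Cdkn2b (an inhibitor of cyclin-dependent kinases), Hadh (a dehydrogenase of fatty acid oxidation), Arl2 (a small GTPase that acts in tubulin folding) and Slc16a9 (a monocarboxylate carrier), with differences from 1.31 to 1.95. Hadh was at 1.42 against a highest vehicle value of 0.71, and no other compound was above 0.40.

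Of 21 glycolysis and hypoxia genes measured, 3 fell with oxyfluorfen and none rose, where 2.56% of all genes fell and 0.383% rose, and 19 had differences below 0, with a median of -0.55 against 0.00 over all genes. Hk2, a hexokinase, was at -3.43 against a lowest vehicle value of -2.81 (difference -3.07, SE 0.79, limma adjusted p = 0.0225). Bnip3, a mitophagy receptor induced by hypoxia, was at -1.75 (lowest vehicle -1.57), and Pdk1, the kinase that inhibits pyruvate dehydrogenase, was at -1.13 (lowest vehicle -0.72). The other 9 compounds lay between -0.73 and 0.75 for Hk2 and between -0.18 and 0.40 for Bnip3. Over the 10 compounds 19 of the 21 differences were above 0, with a median of 0.09 and 0 called, and in the other 9 compounds the list's median ran from -0.03 to 0.30. The list's median value in the oxyfluorfen library, -0.57, was within the range of the vehicle libraries (-0.70 to 0.57).

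Potassium channel genes, which set neuronal excitability, fell in 4 of 24 measured with oxyfluorfen (2.56% of all genes) and rose in none, with 18 of 24 below 0 and a median of -0.42. Among them were Kcnb2 (difference -1.08, SE 0.19, limma adjusted p = 0.000579) and Kcnq3, a subunit of the M-current channel (-2.16, SE 0.41, limma adjusted p = 0.00158). The list's median value was -0.28, below the lowest vehicle library at -0.11, and sulfentrazone was the other compound below that limit, at -0.18, with 0 channels called (Kcnq3 difference -1.58, limma adjusted p = 0.175). Over the 10 compounds 21 of 24 channel differences were below 0 with a median of -0.07 against vehicle and 0 called, and the median against the other chemicals was 0.00. Among glutamate and GABA receptor, adhesion and release genes 2 of 30 fell with oxyfluorfen (2.56% of all genes), the scaffold gene Shank2 (-0.62, SE 0.15) and the synapsin gene Syn2 (-0.61, SE 0.16), and the median value of -0.16 was again below the lowest vehicle library, at -0.13.

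Integrated stress response genes were called in 3 of 26 with oxyfluorfen, where 2.94% of all genes were called. Slc7a5 and Slc3a2, which form an amino acid exchanger, rose by 0.64 (SE 0.14, limma adjusted p = 0.00787) and 0.62 (SE 0.16, limma adjusted p = 0.0205), and Vldlr, a lipoprotein receptor, had a difference of -0.61 (SE 0.12, limma adjusted p = 0.00239). Of the 26 members 22 were above 0, with a median difference of 0.60, and the list's median value, 0.48, was above the highest vehicle library at 0.36. Sesn2, a stress-induced regulator of mTORC1, was 0.83 above vehicle and just missed the threshold (SE 0.25, limma adjusted p = 0.0527). Next among the compounds was lactofen, with a median value of 0.25, inside the vehicle range and with no member called.

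Vim, the intermediate filament of glia and mesenchymal cells, rose with oxyfluorfen to 0.88 from a vehicle range of -0.60 to 0.30 (difference 0.91, SE 0.19, limma adjusted p = 0.00364). It was the only call among 18 smooth muscle actin and contractile genes (2.94% of all genes), of which 17 were above 0, and the list's median value of 0.62 exceeded the highest vehicle library (0.30). Flumioxazin, at 0.37, was also above that limit with no member called. Respiratory chain genes were called in 2 of 31, both higher (0.383% of all genes): Sdhc of complex II (0.49, SE 0.14) and Cyc1 of complex III (0.40, SE 0.12), with adjusted p of 0.0465 and 0.0452. Apoe, which carries lipid out of astrocytes, rose by 0.64 (SE 0.19, limma adjusted p = 0.0464). Egr3, an activity-induced transcription factor, had a difference of -1.62 (SE 0.47, limma adjusted p = 0.0451). Of 26 NRF2 antioxidant genes none was called, although the list's median value, 0.20, was above the highest vehicle library at 0.14.

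**Figure D4:**
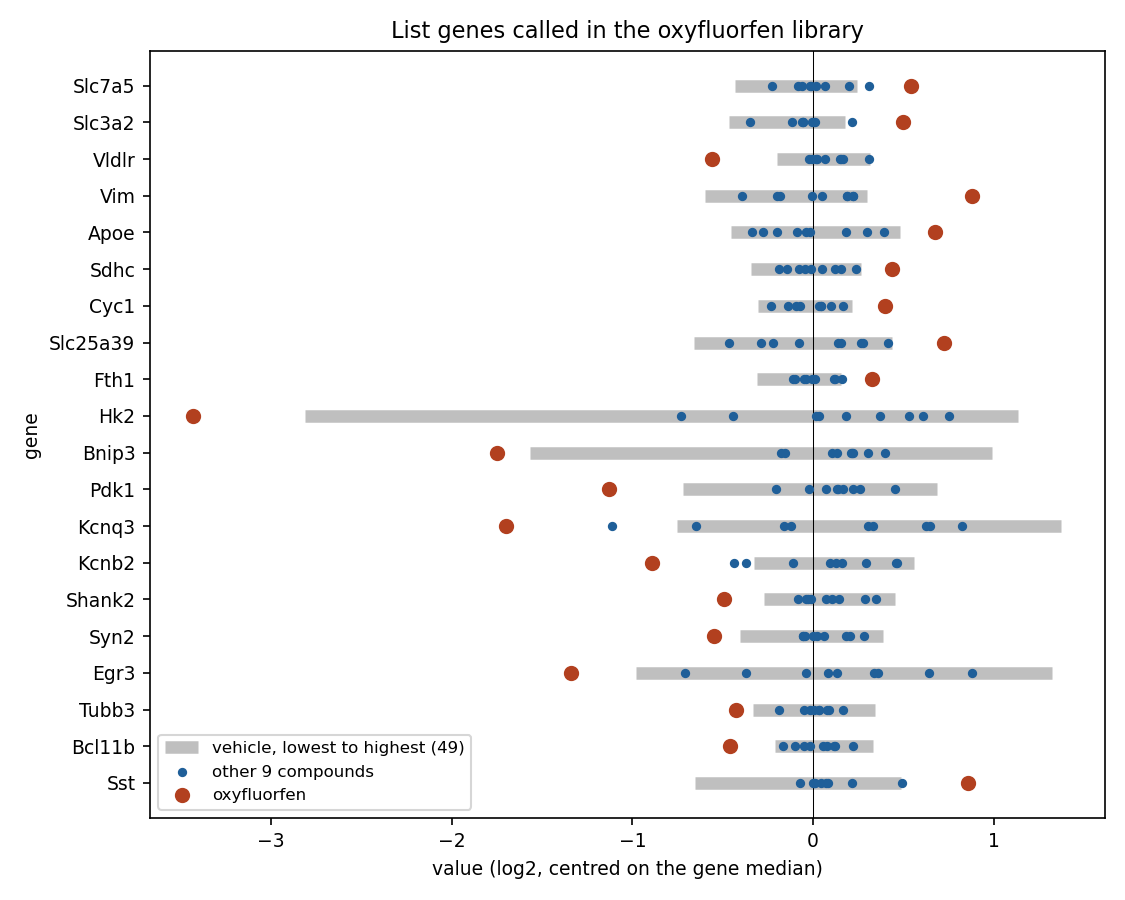
Values (log2, centred on each gene's median over the screen) of 20 genes of the lists that were called in the oxyfluorfen library, shown as red points, with the other 9 compounds in blue and the range of the 49 vehicle libraries in grey. Each red point lies outside the grey bar, for example Vim at 0.88 above 0.30 and Kcnq3 at -1.70 below -0.75.

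Of 18 neuron markers 3 were called with oxyfluorfen (2.94% of all genes): Tubb3, the neuronal tubulin (-0.49, SE 0.13), and Bcl11b, a factor of deep-layer neurons (-0.50, SE 0.13), were lower and Sst, the interneuron peptide somatostatin (0.84, SE 0.24), was higher, with adjusted p of 0.0255, 0.0275 and 0.0415. The median of the neuron list was -0.11, within the vehicle range of -0.13 to 0.30. None of 10 astrocyte markers was called (median 0.37, vehicle -0.75 to 0.50) and none of 7 microglia markers (median 0.33, vehicle -0.59 to 0.47). For microglia 7 of 14 listed markers were measured, for oligodendrocytes 7 of 12 and for vascular and mesenchymal cells 7 of 14, and none was called with any compound. The microglia median was above every vehicle library with flumiclorac-pentyl (0.57) and pyraflufen-ethyl (0.55). The part of cell composition in the calls was not tested.

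Over all 24 lists, oxyfluorfen's median value lay above every vehicle library in 7 lists and below every one in 2. The 7 were NRF2, integrated stress response, PPAR and fatty acid oxidation, heat shock, p53, actin and cell cycle genes. Among the other 9 compounds, flumioxazin lay above in 2 lists and below in 1, and butafenacil, sulfentrazone, pyraflufen-ethyl and flumiclorac-pentyl lay outside in 1 each. Acifluorfen, lactofen, carfentrazone-ethyl and fluthiacet-methyl lay inside the vehicle range for all 24. Outside oxyfluorfen the only members called were Blvra with flumioxazin, Crh with flumiclorac-pentyl, and Crh, Sult1a1 and Calr, a chaperone of the endoplasmic reticulum, with butafenacil, where all of them fell.

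**Figure D5:**
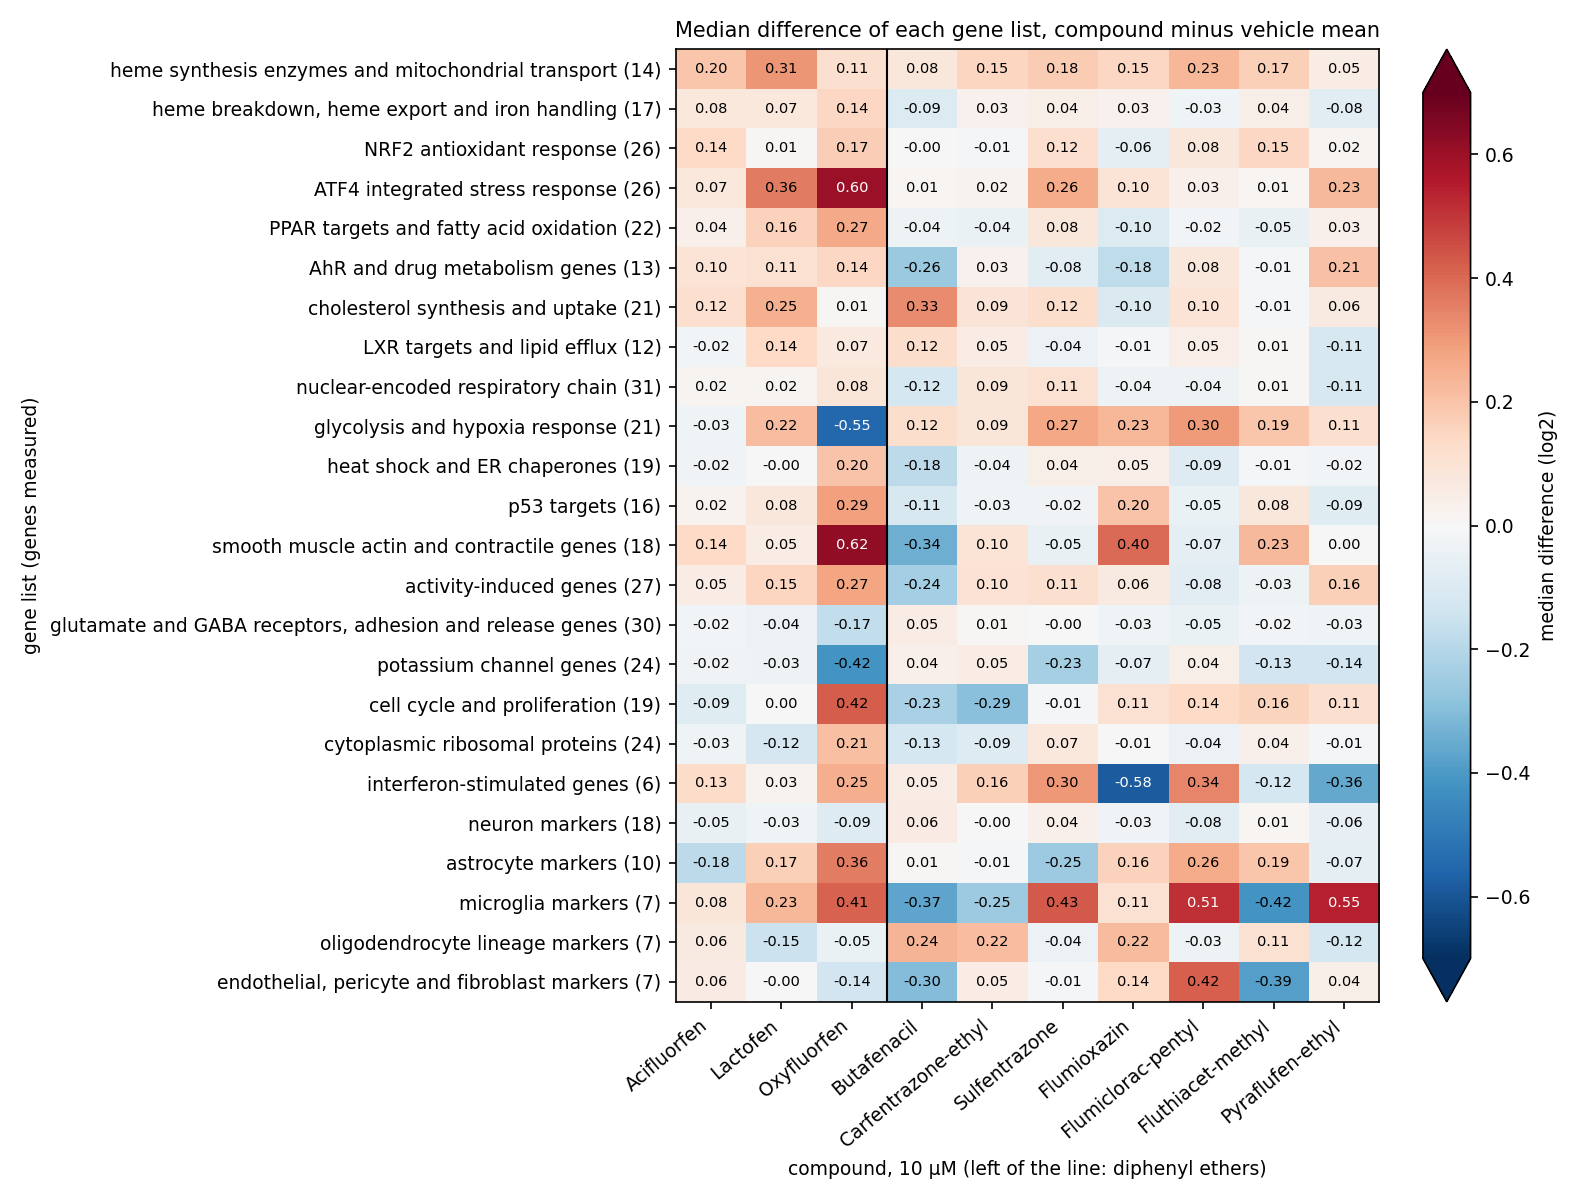
Median difference from the vehicle mean (log2) of each gene list, in rows with the number of genes measured, for each compound at 10 µM, in columns with diphenyl ethers left of the line. Among the 10 compounds, oxyfluorfen has the highest median in the stress response (0.60) and actin (0.62) rows and the lowest in the glycolysis (-0.55) and potassium channel (-0.42) rows.

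The profiles of the 10 compounds over the 5121 variably expressed genes were compared in pairs. Spearman correlations of the 45 pairs ran from -0.15 to 0.06 with a median of 0.02, and 29 of the 45 were above 0. All 43956 pairs of the 297 chemicals had a median of 0.01 with 95% of them below 0.07, and none of the 45 pairs exceeded that value. The 3 pairs of diphenyl ethers had correlations of 0.03 to 0.05. Such weak values over genes are given as a description, since all profiles were centred and corrected together.

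The chemicals most like oxyfluorfen were the fungicide famoxadone at 10 µM (0.31), the fungicide pyraclostrobin at 0.1 µM (0.30) and the acaricide fenpyroximate at 0.1 µM (0.30), all inhibitors of the mitochondrial respiratory chain. Those most like flumioxazin were fenamidone (0.15), trifloxystrobin (0.13) and pyraclostrobin (0.12), which also act there, at about the distance of butafenacil from the herbicide linuron (0.16). For the remaining 7 compounds the highest correlation with any chemical was between 0.06 and 0.09. For none of the 10 compounds was another member of the 10 among the 3 most similar chemicals.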

How the data were processed

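Cortical cultures exposed to 10 herbicides, vehicle or other chemicals were profiled by RNA sequencing. The authors aligned reads to mm9 with TopHat, computed RPKM over RefSeq gene models, and kept genes detected in most samples. They then deposited log10 values, normalized by quantiles, centred on each gene's median and freed of culture and batch effects by a mixed model. The deposited log10 values were converted here to log2. Depth is unknown, no level, interval on counts or floor can be given, and no batch could be examined because the labels name none.

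Groups came from sample titles. The members were picked by chemical name, but this class and the gene lists were chosen with earlier results of these data known. limma 3.58.1 in R 4.3.3 was used with a constant variance prior, two-sided, adjusted by Benjamini-Hochberg over 13304 genes, with a threshold of 0.05. One fit gave each of the 10 compound libraries its own coefficient beside 49 vehicle libraries, so a lone library was assumed to vary like vehicle. The pairs were contrasts in that fit. Another fit had 2 groups, and a further one had diphenyl ethers, the other 7 compounds and vehicle. Medians of the 287 other chemicals were the second reference. Permutation tests of 14 heme genes used 100000 resamples. Spearman correlations used the 5121 genes with an SD above 0.1 in log10 units. Genes in the text were the 10 largest rises and falls called for the class and 5 for other comparisons (3 by moderated t where fewer passed), all heme synthesis genes, and up to 4 members of each list by moderated t. A few values beyond that rule, such as Hmox1 and Fth1 beside their list, were chosen after they were seen, as were Urod and Slc25a37 in single compounds, Crh in the remaining compounds and genes named for their role among calls. List members were matched by symbol, with 3 matched through another symbol in RefSeq. Scripts were tested on simulated data. Tables of counts in the series hold other chemicals and were not used. Some genes that the rule names are not reported here. Alternatives are listed in the closing section.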

Additional observations from a re-analysis of the deposited data

Results flagged for a closer look

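Oxyfluorfen's count of 391 called genes stood apart from the counts of the other 9 compounds (1 to 10), with a gap to the next of 0.9769 of the whole range above Dixon's 95% critical value for 10 samples. Slc25a37 with fluthiacet-methyl, at -1.17, also stood apart from the other 9 compounds, with a gap of 0.4675 of the range. In all 46 groups of values were examined and 2 held such a value, where chance alone gives about 1 in 20.

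The following genes differed between the libraries of compounds that differ by a named change in structure. The test was limma on the difference itself, with 1 library on each side, so structure cannot be told apart from a difference between the cultures. Foxo4 differed by -4.175 between acifluorfen and lactofen. Acot13 differed by -2.867 between acifluorfen and oxyfluorfen. Between lactofen and oxyfluorfen the differences were 1.741 in Tmem2, 1.595 in Hivep3, 1.347 in Kcnb2, 0.905 in Fam102b and -2.447 in Zbtb7b.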

How the results depend on the processing

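The higher Alas1 over the 10 compounds kept its direction and stayed below the threshold under each of the 17 alternatives run. With variably expressed genes only, calls numbered 50 for oxyfluorfen, 88 for the other 9 compounds together, 3 for diphenyl ethers, 3 each for acifluorfen minus lactofen and lactofen minus oxyfluorfen, and 2 for flumiclorac-pentyl minus flumioxazin. At an adjusted p of 0.01 they were 96, 22, 1 for the 10 compounds, 2 for diphenyl ethers, 17 over the pairs, 1 for acifluorfen minus oxyfluorfen and 0 for lactofen minus oxyfluorfen. With the spread pooled over the screen they were 123 for the 9 compounds, 198 over the pairs, 3 for acifluorfen minus lactofen, 4 for acifluorfen minus oxyfluorfen, 2 for carfentrazone-ethyl minus sulfentrazone and 3 for flumiclorac-pentyl minus flumioxazin. Adjusted within each pair, the pairs gave 389 and lactofen minus oxyfluorfen 12. With the other chemicals as reference, diphenyl ethers gave 0 calls and the other 7 gave 2, Alad moved to 0.026 and Cpox to -0.038, neither called. With flufenpyr-ethyl, a further herbicide of this kind, added, 1 gene was called over the compounds. Leaving out each compound gave 2 to 4 calls for the 10 compounds, 1 to 80 for diphenyl ethers, 1 to 6 against the other chemicals and 1 to 4 heme genes with a permutation p below 0.05 (2 with all compounds). It moved Urod from -0.36 to 0.10, Slc25a37 from -0.15 to 0.057 and Alas1 in diphenyl ethers minus the other 7 from -0.076 to 0.455. Without vehicle replicate 39, an alternative chosen after seeing the data, diphenyl ethers gave 33 calls. Apart from the alternatives' own construction, the cause of these shifts was not tested. No paired analysis was possible by replicate number, because each compound had 1 library and the vehicle numbers follow accession order. The sample titles also carry library serial numbers, and in the deposited column order vehicle libraries stand among runs of these serials. The paper mentions chemical and vehicle pairs for its mitochondrial reads, but the labels do not name them. Pairing by serial number or column order was not tested. One library a compound and unknown depth limit what single compounds can show.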

Other observations

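Flufenpyr-ethyl, a phenylpyridazinone herbicide outside the rule for the 10 compounds, had an Alas1 value of 0.16 at rank 72 of 297 chemicals. Among the chemicals outside the 10 compounds, Alas1 was highest with cyanazine (0.72), dicamba (0.69), aldicarb (0.68) and S-bioallethrin (0.66).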
